A study of Mus musculus with 12 samples.

Results

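Pancreatic stellate cells (PSCs) were examined for 8 genes that bear on antigen presentation to T cells. *H2-Aa*, *H2-Ab1* and *H2-Eb1* encode chains of MHC class II molecules, *Ciita* their transcriptional coactivator, *Cd74* the invariant chain, and *H2-DMa* a chain of the peptide editor. *Cd274* encodes the checkpoint ligand PD-L1 and *Cd40* a costimulatory receptor. The genes were chosen by symbol because MHC class II and *Cd74* define antigen-presenting cancer-associated fibroblasts (apCAFs), and all 8 were found among the 39179 genes of the count table. The comparison asks whether PSCs take up such a state when cultured with tumour cells, or with tumour cells and macrophages. Of the 8 genes, 3 passed the filter on low counts of the main test in each comparison (*Cd74*, *H2-DMa*, *Cd274*) and 5 did not. Without that filter and by the DESeq2 Wald test, 0 of these 5 were called in any comparison. They had no more than 10 counts in any library, and in 2W-PSCs against mono-PSCs only 6 of the 8 genes had a count. A call could hardly arise at such counts, so this does not show that they were unchanged.

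PSCs labelled with mCherry were kept for 72 h in minimal medium alone (mono-PSCs), with EGFP-labelled pancreatic cancer cells (PCCs, 2W-PSCs), or with PCCs and TagBFP-labelled macrophages (MØs, 3W-PSCs), with 4 libraries per culture and 12 in all. They were sorted on mCherry, leaving out cells with EGFP or TagBFP, and their RNA was read from the 3′ end. All 3 cultures used the same PSCs of strain C57BL/6, without further treatment. The PSC line is an SV40-immortalised clone, the PCCs are an established mouse line, and the MØs are of the mouse line RAW264.7, so that every culture describes cell lines and not primary cells. The libraries are separate cultures by their replicate numbers only. P-values therefore measure the spread between these libraries, part of which may be technical.

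MHC class II molecules are pairs of an alpha and a beta chain that display peptides from endosomes to CD4+ T cells. Expression is common in dendritic cells, B cells and macrophages, whereas other cells usually need interferon-gamma, which acts through JAK kinases and IRF1 to switch on *Ciita*. CIITA does not bind DNA itself but is recruited by the RFX, CREB and NFY factors that sit on the X and Y boxes of class II promoters. The related NLRC5 does the same at MHC class I promoters.

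The promoters on which these factors act are shown for 2 of the chains, *H2-Eb1* and *H2-Aa*, to mark the boxes where CIITA would be recruited. The sequences are those of RefSeq on GRCm38.p6, in 5′ to 3′ direction of the gene, at chr17:34305763-34305822 on the plus strand and chr17:34287857-34287916 on the minus strand. Capitals mark matches to the X box letters (AG, any 2 bases, AC, any 2 bases, ATG) and to the Y box core ATTGG.
H2-Eb1: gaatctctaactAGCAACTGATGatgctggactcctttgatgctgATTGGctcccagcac
H2-Aa: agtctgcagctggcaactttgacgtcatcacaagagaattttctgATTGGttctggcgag
In *H2-Eb1* the boxes lay 22 bases apart. The *H2-Aa* window held a Y box but no match to these X box letters, which says only that these letters are not in it. On both strands, the X box letters were found in 3.09% of 32851 promoters of 300 bases, the Y box in 37.4% and both in 1.42%. Promoter entries were matched for 4 of the 8 genes. Of these, *H2-DMa* (2 entries) and *Cd274* had no X box match, and none of the 4 genes held the IRF motif (GAAA, any 2 bases, GAAA; 3.44% of promoters).

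Total counts ranged from 4561817 to 8093368 per library, and 3 counts in a library, taken as the floor of detection, stood for 0.347 to 0.736 CPM. CPM are counts scaled to a common library total by TMM normalisation. The 12 fibroblast markers fixed for the check of cell type summed to 4913 to 9234 CPM in mono-PSCs and 8401 to 8710 in 2W-PSCs. In 3W-PSCs the sum was between 5437 and 6467 CPM, and no marker was at 0 throughout a culture. Single markers differed, with *Lum* at 0 in 3 of the 4 3W-PSC libraries and *Fap* at 0.328 CPM on average there. Of 10 that passed the filter in 3W-PSCs against 2W-PSCs, 2 were higher and 5 lower, beside 5.73% and 4.95% of all genes. Replicate 2 of the 2W-PSCs stood apart, with a chi-square per gene of 41.8 to 80.2 against the other 2W libraries, which differed from each other by 20.9 to 23.4. Of 11 epithelial markers the summed level was 0.242 to 2.15 CPM in mono-PSCs, 60.7 to 132 in 2W-PSCs, and between 41.0 and 73.1 in 3W-PSCs, with *Cldn4* at 0 in all 12 libraries. The part of these other transcripts in the results was not tested.

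The class II chains themselves were at or near the floor in all 3 cultures. *H2-Aa* (chromosome 17, 34282744 to 34287823, minus strand) had 0 counts in all mono-PSC and 2W-PSC libraries, and 0, 4, 0 and 0 counts in replicates 1 to 4 of the 3W-PSCs. *H2-Ab1* (chromosome 17, 34257689 to 34269419, plus strand), its beta partner, had 0, 0, 0 and 10 counts in mono-PSCs, 5, 0, 0 and 0 in 2W-PSCs, and 0 in all 3W-PSC libraries. *H2-Eb1* (chromosome 17, 34305867 to 34316674, plus strand) had 0, 2, 0 and 0 counts in mono-PSCs, 0 in all 2W-PSC libraries, and 0, 2, 2 and 4 in 3W-PSCs. No library held counts of both *H2-Aa* and *H2-Ab1*, the alpha and beta chains of I-A.

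Summed over the 3 chains, there were 12 counts in mono-PSCs, 5 in 2W-PSCs and 12 in 3W-PSCs, and 6 of the 12 libraries had none. With the libraries of a culture pooled this made 0.486 CPM in mono-PSCs (exact Poisson 95% interval 0.251 to 0.849), 0.211 in 2W-PSCs (0.0685 to 0.493) and 0.378 in 3W-PSCs (0.195 to 0.661). The intervals overlap and cover counting error only. A rise of the class II chains in 3W-PSCs was not detectable at this depth. In exact permutation tests of single genes, *H2-Eb1* in 3W-PSCs gave p = 0.143 against 2W-PSCs and p = 0.371 against mono-PSCs, two-sided, where 4 libraries against 4 cannot go below 0.0286. The nonclassical and paralogous chains of the wider class II list were likewise almost without counts, *H2-Oa*, *H2-Ob*, *H2-Eb2* and *H2-Ea-ps* being at 0 in all 12 libraries.

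**Figure D1:**
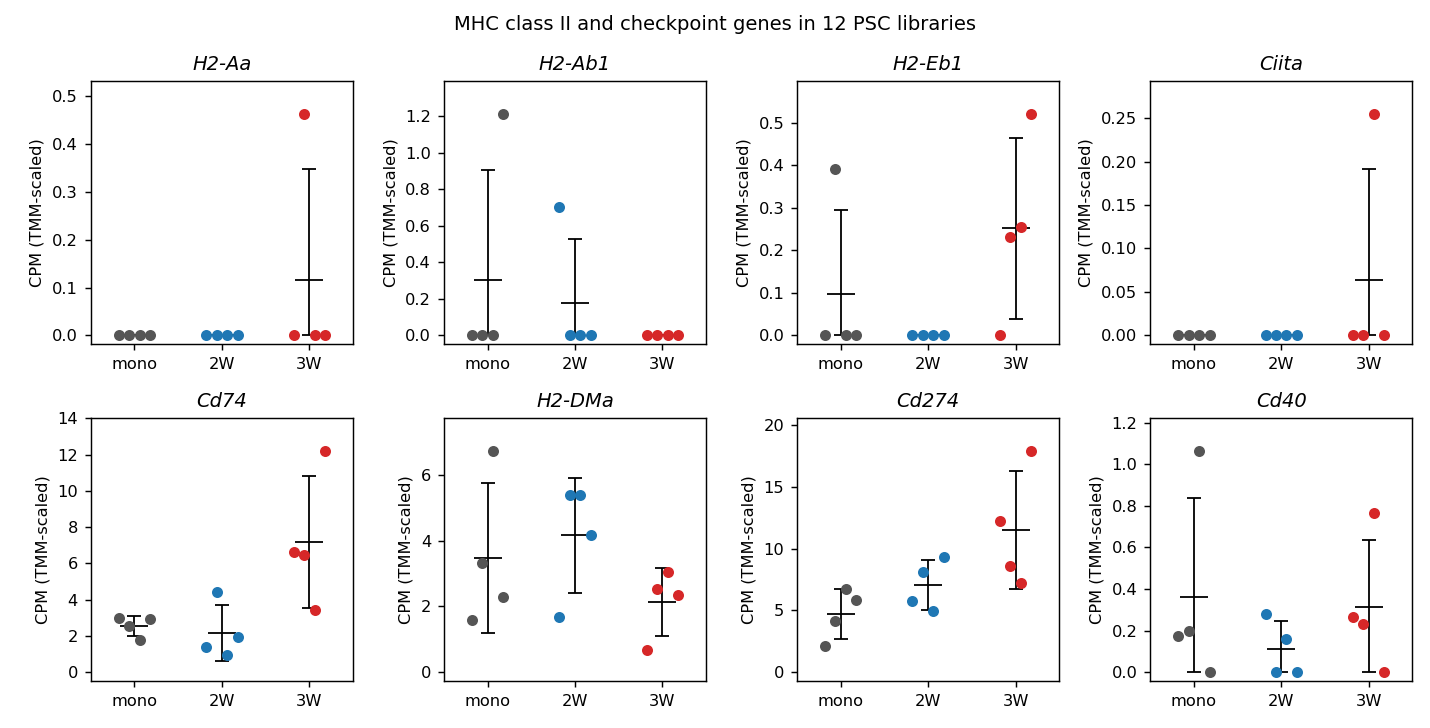
Level of each of the 8 genes by library. Each panel plots CPM (TMM-scaled, linear axis from 0, own range) against culture, with 1 point per library in replicate order, the mean as a bar and the SD as whiskers, drawn no lower than 0. The 3 class II chains and *Ciita* lie at 0 in most libraries, whereas *Cd74* and *Cd274* in 3W-PSCs lie above every mono-PSC library, and replicate 4 is the highest 3W library of both.

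*Ciita* (chromosome 16, 10480059 to 10528418, plus strand), without which the class II promoters stay silent in most cells, was also at the floor. It had 0 counts in 11 libraries and 2 counts in replicate 3 of the 3W-PSCs. Pooled, the upper 95% limits were 0.149 CPM in mono-PSCs, 0.156 in 2W-PSCs and 0.228 in 3W-PSCs. Its exons share 329 bases with *Dexi* on the opposite strand, and the strand setting of the counting is not given in the sources used here, so a few reads could not be assigned to either gene with certainty.

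The factors that recruit CIITA were in contrast all measured. Of the 7 genes (*Rfx5*, *Rfxank*, *Rfxap*, *Nfya*, *Nfyb*, *Nfyc*, *Creb1*), 1 was higher and 0 lower in 3W-PSCs than in 2W-PSCs, with a median log2 fold change of 0.29 beside 0.003 over all genes tested. Of all genes tested there, 5.73% were higher and 4.95% lower. *Rfx5*, the DNA-binding subunit of the RFX complex, had 17.03, 16.3, 13.7 and 13.3 CPM in mono-PSCs, 10.7, 16.4, 10.51 and 7.23 in 2W-PSCs, and 23.9, 24.9, 16.8 and 21.3 in 3W-PSCs. All 3W-PSC libraries were above all 2W-PSC libraries, replicate 3 of the 3W-PSCs only just above replicate 2 of the 2W-PSCs. The log2 fold change was 0.97 ± 0.270 (SE, adjusted p = 0.0432 by edgeR), which 7 of 16 alternatives called. The call was lost when any library other than replicate 2 of the 2W-PSCs was left out (highest adjusted p = 0.140 by edgeR) and with DESeq2 size factors (adjusted p = 0.0512 by edgeR) or a replicate block (0.0594). Against mono-PSCs, *Rfx5* differed by 0.52 ± 0.210 (adjusted p = 0.0746 by edgeR), and *Rfxap*, another RFX subunit, fell by 0.77 on the log2 scale (SE 0.221, adjusted p = 0.0153 by edgeR), which was lost without replicate 1 of the 3W-PSCs and with all 12 libraries in one fit. None of the 7 passed the test in 2W-PSCs against mono-PSCs.

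*Cd74* (chromosome 18, 60803848 to 60812652, plus strand) encodes the invariant chain, which fills the groove of new class II molecules and guides them to endosomes, and which also serves as a receptor for the cytokine MIF. It had 2.98, 2.55, 1.78 and 2.90 CPM in mono-PSCs, 1.41, 4.42, 0.955 and 1.93 in 2W-PSCs, and 6.64, 6.48, 3.44 and 12.2 in 3W-PSCs. The 3W-PSC libraries lay above all mono-PSC libraries, but replicate 3 of the 3W-PSCs lay below replicate 2 of the 2W-PSCs. The highest 3W library had 94 counts and the lowest 27, against 10 to 24 in mono-PSCs and 6 to 18 in 2W-PSCs.

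Against mono-PSCs, the level of *Cd74* in 3W-PSCs was 2.78-fold higher (1.47 ± 0.415 on the log2 scale, SE, n = 4 per culture, adjusted p = 0.0139 by edgeR). The call was kept in 14 of 15 alternatives (adjusted p = 0.00294 to 0.0892), the exception being the fit without replicate 4 of the 3W-PSCs, where the log2 fold change was 1.10 with an adjusted p of 0.0892. Against 2W-PSCs it was 3.43-fold higher (1.78 ± 0.536 on the log2 scale, adjusted p = 0.0567 by edgeR), which missed the threshold of 0.05. Here 5 of 15 alternatives called it, among them the DESeq2 Wald test (adjusted p = 0.0177), the fit without replicate 2 of the 2W-PSCs (log2 fold change 2.32, adjusted p = 0.00423 by edgeR) and the fit without that library and replicate 4 of the 3W-PSCs, chosen after seeing the data (1.94, adjusted p = 0.0189 by edgeR). Between 2W-PSCs and mono-PSCs the log2 fold change was -0.26 ± 0.569 (adjusted p = 0.999 by edgeR). Exact permutation tests gave p = 0.0286 against mono-PSCs, the smallest they can give, and p = 0.0571 against 2W-PSCs, or 0.343 and 0.457 after Benjamini-Hochberg adjustment over the 24 tests of the 8 genes.

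Of the 3 genes that passed the filter, 0 were called in 3W-PSCs against 2W-PSCs, where 10.7% of 11513 genes were called by edgeR, 5.73% higher and 4.95% lower. In 2W-PSCs against mono-PSCs it was also 0 of 3, beside 0.991% of 11199 genes (0.839% higher and 0.152% lower). In 3W-PSCs against mono-PSCs 2 of 3 passed, both higher (*Cd74* and *Cd274*), beside 13.4% of 11551 genes called higher and 26.4% called in either direction. Without adjustment, *Cd74* alone of the 3 genes passed 0.05 in 3W-PSCs against 2W-PSCs, and 0 in 2W-PSCs against mono-PSCs, where the DESeq2 Wald test also called 0. The libraries of *Cd74* and *Cd274* did not overlap between 3W-PSCs and mono-PSCs, as for 25.9% of all genes tested (13.7% with 3W-PSCs higher). In the other comparisons all 3 genes overlapped, where 21.3% of all genes did not in 3W-PSCs against 2W-PSCs (11.5% higher) and 5.73% did not in 2W-PSCs against mono-PSCs (3.29% higher).

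The higher *Cd74* level came together with more macrophage transcripts in the 3W-PSCs. In bulk RNA, fewer cells of a type and less RNA per cell cannot be told apart. The 20 macrophage markers summed to 2.98 to 9.99 CPM in mono-PSCs, 4.79 to 11.8 in 2W-PSCs, and between 27.2 and 75.5 in 3W-PSCs, and replicate 4 of the 3W-PSCs was the highest of all. Of the 20, 9 were at 0 in all mono-PSC libraries, 10 in all 2W-PSC libraries and 1 in all 3W-PSC libraries. That gene was *Adgre1*, which encodes F4/80, at 0 throughout the 12 libraries. *Ptprc* (CD45), the pan-leukocyte marker, and *Tyrobp*, a signalling adaptor of myeloid cells, were at 0 in every mono-PSC and 2W-PSC library and averaged 0.840 ± 1.23 and 0.897 ± 1.32 CPM (SD, n = 4) in those of the 3W-PSCs, where the lowest was at 0 for both. Of 6 markers that passed the filter, 3 were higher and 0 lower against 2W-PSCs, beside 5.73% of all genes higher. These were *Cybb*, *Mpeg1* and *Cd53*, which averaged 6.29, 6.98 and 5.37 CPM in 3W-PSCs, with counts in every 3W-PSC library. Against mono-PSCs 4 of 6 were higher and 0 lower, beside 13.4% of all genes higher. In 2W-PSCs against mono-PSCs 0 of the 20 markers passed the filter. The markers tested thus entered with the 3W-PSC libraries, where they are high. The filter largely set the direction of these counts, and the shares of all genes are no measure for them.

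Per macrophage marker count, there were 0.255 to 1 *Cd74* counts in mono-PSCs, 0.154 to 0.375 in 2W-PSCs, and between 0.106 and 0.238 in 3W-PSCs. The 3W-PSC ratios lay below all mono-PSC ratios and overlapped with those of 2W-PSCs. No MØs were in the mono-PSC and 2W-PSC cultures, so their ratios give no reference for macrophage RNA. The 9 markers of dendritic and B cells had a summed level of 5.79 to 9.01 CPM in mono-PSCs, 5.73 to 9.81 in 2W-PSCs, and between 2.67 and 7.67 in 3W-PSCs, and *Cd79a*, *Ms4a1* and *Itgax* were at 0 in all 12 libraries. The part of macrophage RNA in the *Cd74* result was not tested.

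**Figure D2:**
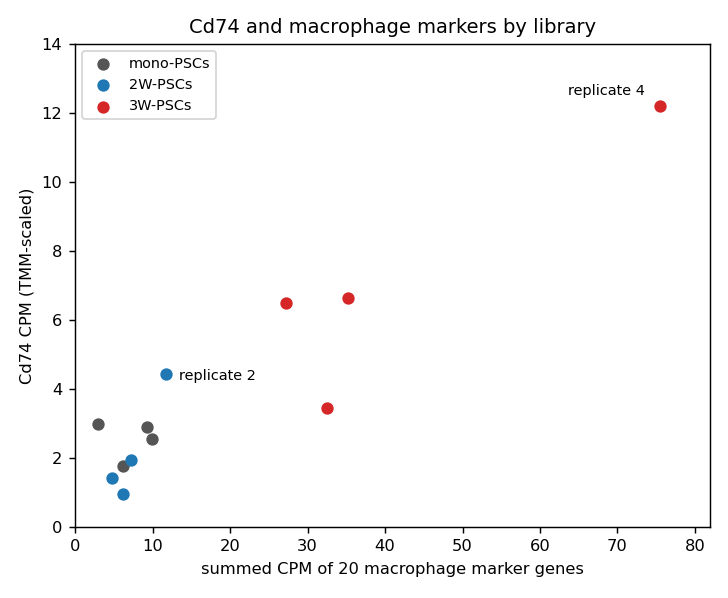
*Cd74* and macrophage markers. Each point is 1 of the 12 libraries, with the summed CPM of 20 macrophage markers on the horizontal axis and *Cd74* CPM on the vertical axis, both linear from 0. The 3W-PSC libraries lie to the right of the others (27.2 to 75.5 CPM), with replicate 4 at the upper right (12.2 CPM of *Cd74*), and replicate 2 of the 2W-PSCs has the highest *Cd74* level outside the 3W-PSCs (4.42 CPM).

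*H2-DMa* (chromosome 17, 34119541 to 34139101, plus strand) encodes the alpha chain of H2-DM, which exchanges the invariant chain's peptide for antigen. It had 1.58, 3.33, 6.75 and 2.30 CPM in mono-PSCs, 1.69, 5.40, 5.41 and 4.17 in 2W-PSCs, and 0.664, 2.55, 3.05 and 2.34 in 3W-PSCs. The 3 cultures overlapped, and its direction in 3W-PSCs differed from that of *Cd74*. The log2 fold change was -0.93 ± 0.531 in 3W-PSCs against 2W-PSCs (adjusted p = 0.297 by edgeR) and -0.69 ± 0.539 against mono-PSCs (adjusted p = 0.373 by edgeR), and no alternative called either. An annotated exon of *H2-DMa* shares 360 bases with *Brd2* on the opposite strand.

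The beta chain gene *H2-DMb1*, a member of the partner list, was also present in every library. It had 18, 41, 18 and 27 counts in mono-PSCs, 18, 10, 26 and 13 in 2W-PSCs, and 28, 28, 32 and 24 in 3W-PSCs. Replicate 2 of the mono-PSCs was the highest. The log2 fold change was 0.33 ± 0.380 in 3W-PSCs against 2W-PSCs (adjusted p = 0.627 by edgeR), and some of the 75-base windows at its 3′ end also occur in *H2-DMb2*, which limits the assignment of its reads. Reads assigned to both chains of the editor were thus found in all 12 libraries, within the limits of assignment given for each. The chains it acts on were at or near the floor.

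Of the 12 class II partner genes 6 passed the filter, and edgeR called 0 in 3W-PSCs against 2W-PSCs (median log2 fold change 0.12), though *Lgmn* was called there without replicate 2 or 3 of the 2W-PSCs and *Ifi30* without replicate 2. Without the filter, and by the DESeq2 Wald test, 8 were tested and 1 was called there, *Ctss*. Against mono-PSCs, 1 was higher and 2 were lower (median -0.40, beside 0.012 over all genes), where 13.4% of all genes were higher and 13.0% lower. *Lgmn*, an endosomal protease that cleaves antigens and the invariant chain, had 27.03, 8.23, 17.8 and 14.9 CPM in mono-PSCs and 50.7, 50.7, 62.0 and 53.3 in 3W-PSCs, with no overlap. It rose by 1.66 ± 0.256 on the log2 scale (adjusted p = 0.000123 by edgeR). *Ifi30*, the thiol reductase GILT that unfolds antigens, fell by 0.91 (SE 0.173, adjusted p = 0.000821 by edgeR), from 69.5 to 99.95 CPM in mono-PSCs to 36.6 to 53.3 in 3W-PSCs, and was not called with all 12 libraries in one fit (adjusted p = 0.0575 by edgeR). *March8*, a ubiquitin ligase that removes class II molecules from the surface, fell by 0.48 (SE 0.158, adjusted p = 0.0313 by edgeR), a call lost without replicate 4 of the mono-PSCs or replicate 1 or 2 of the 3W-PSCs, without the filter, and with all 12 libraries in one fit (highest adjusted p = 0.103).

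*Ctss*, which encodes cathepsin S, the main protease that trims the invariant chain in professional antigen-presenting cells, did not pass the filter. It was at 0 in all mono-PSC and 2W-PSC libraries and had 7, 4, 6 and 20 counts in 3W-PSCs. All 3W-PSC libraries were above the floor of 3 counts, and replicate 4, the library with the most macrophage marker counts, was again the highest. Without the filter *Ctss* was called against 2W-PSCs (adjusted p = 0.0332 by edgeR) and against mono-PSCs (adjusted p = 0.00298), as it was by the DESeq2 Wald test (adjusted p = 0.0061 and 0.00266).

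*Cd274* (chromosome 19, 29367455 to 29388095, plus strand) was the most abundant of the 8 genes. PD-L1 binds PD-1 on T cells and dampens their activation. It had 2.11, 4.11, 6.75 and 5.81 CPM in mono-PSCs, 5.77, 8.10, 4.94 and 9.31 in 2W-PSCs, and 12.2, 8.56, 7.25 and 17.9 in 3W-PSCs. The 3W-PSC libraries lay above all mono-PSC libraries but overlapped with the 2W-PSCs.

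Against mono-PSCs, the level of *Cd274* in 3W-PSCs was 2.41-fold higher (1.27 ± 0.370 on the log2 scale, adjusted p = 0.0172 by edgeR). The call was kept in 14 of 15 alternatives (adjusted p = 0.00115 to 0.0901), and, as for *Cd74*, not without replicate 4 of the 3W-PSCs, where the log2 fold change was 0.97 (adjusted p = 0.0901 by edgeR). The step from mono-PSCs to 2W-PSCs was 0.58 ± 0.425 (adjusted p = 0.954 by edgeR) and that from 2W-PSCs to 3W-PSCs 0.71 ± 0.346 (adjusted p = 0.218 by edgeR), so that neither passed alone. Exact permutation tests of *Cd274* gave p = 0.0286 (0.343 after adjustment) for 3W-PSCs against mono-PSCs and p = 0.143 against 2W-PSCs. Exons of *Cd274* share 511 bases with *AC119228.1* on the opposite strand.

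*Cd40* (chromosome 2, 165055627 to 165072948, plus strand), the receptor through which T cell help activates antigen-presenting cells, had 1, 1, 6 and 0 counts in mono-PSCs, 2, 0, 1 and 0 in 2W-PSCs, and 2, 2, 6 and 0 in 3W-PSCs. No culture stood out, and 4 of the 12 libraries had none. Exact permutation tests gave p = 0.371 for 3W-PSCs against 2W-PSCs and p = 0.457 for 2W-PSCs against mono-PSCs.

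Among 17 other co-signalling ligands and receptors, 7 passed the filter in 3W-PSCs against 2W-PSCs, where 1 was higher and 0 lower beside 5.73% of all genes higher, and 7 against mono-PSCs, where 2 were higher and 0 lower beside 13.4% of all genes higher. *Cd47*, the "don't eat me" signal to macrophages, averaged 129 ± 20.2 CPM in mono-PSCs, 165 ± 61.4 in 2W-PSCs and 297 ± 32.4 in 3W-PSCs (SD, n = 4). It rose by 1.20 ± 0.157 against mono-PSCs (adjusted p = 2.29e-05 by edgeR) and by 0.85 ± 0.245 against 2W-PSCs (adjusted p = 0.0475 by edgeR), the second call being lost when any library other than replicate 2 of the 2W-PSCs was left out and with DESeq2 size factors (adjusted p = 0.0575) or a replicate block (0.0528). *Cd80*, the B7 ligand of CD28 and CTLA-4, had 3, 5, 0 and 6 counts in mono-PSCs, 9, 20, 6 and 11 in 2W-PSCs and 25, 21, 33 and 34 in 3W-PSCs. *Cd80* passed the filter only in the comparisons with 3W-PSCs, so its direction against mono-PSCs was largely set by the filter. Its log2 fold change in 3W-PSCs against mono-PSCs was 2.63 ± 0.615 (adjusted p = 0.00421 by edgeR) and it was called in all 14 alternatives. Against 2W-PSCs it was 0.75 ± 0.538 (adjusted p = 0.415 by edgeR) and not called. In CPM, replicate 2 of the 2W-PSCs (4.91) lay above all 3W-PSC libraries (2.43 to 4.42). *Cd86*, the partner of *Cd80*, was at 0 in all mono-PSC and 2W-PSC libraries and at no more than 0.390 CPM in 3W-PSCs. The B7 family members *Pdcd1lg2* (PD-L2) and *Vtcn1* were at 0 in all 12 libraries, and *Cd276* (B7-H3) was at 7.36 ± 3.84, 9.49 ± 1.99 and 8.91 ± 2.37 CPM, with no call.

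The interferon-gamma list held 11 genes, of which 9 passed the filter in each comparison with 3W-PSCs. It includes genes that do not lead to *Ciita*, such as *Nlrc5* and *Cxcl9*. In 3W-PSCs against 2W-PSCs 4 were higher (*Jak2*, *Irf1*, *Nlrc5* and *Cxcl9*) and 0 lower. The median log2 fold change was 1.11 beside 0.003 over all genes, and 5.73% of all genes were called higher. Without replicate 2 of the 2W-PSCs the count was 7, and without replicate 1 of the 3W-PSCs it was 2. Against mono-PSCs 7 were higher and 0 lower (median 1.31, beside 0.012 over all genes and 13.4% called higher). In 2W-PSCs against mono-PSCs 0 of 7 were called (median 0.24). *Nlrc5* and *Cxcl9* passed the filter only in the comparisons with 3W-PSCs, where they are high. The filter thus largely set their direction and their part in the counts and medians. *Jak2* and *Irf1* passed it in every comparison. *Ifng* itself had no count in any library.

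*Irf1*, an interferon-induced factor that acts on the *Ciita* promoter, had 293, 330, 358 and 587 counts in mono-PSCs, 555, 133, 496 and 623 in 2W-PSCs, and 1194, 1373, 1116 and 1287 in 3W-PSCs. All 3W-PSC libraries lay above all others, and replicate 2 of the 2W-PSCs was the lowest of the 12. It rose by 1.11 ± 0.273 against 2W-PSCs (adjusted p = 0.0262 by edgeR), a call lost without replicate 1 of the 2W-PSCs or any one of the 3W-PSC libraries, and by 1.31 ± 0.15 against mono-PSCs (adjusted p = 4.76e-06 by edgeR).

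*Nlrc5*, the class I counterpart of *Ciita*, was well above the floor in 3W-PSCs. It had 4, 6, 0 and 0 counts in mono-PSCs, 4, 0, 0 and 6 in 2W-PSCs, and 44, 84, 27 and 51 in 3W-PSCs. The lowest 3W-PSC library was above the highest of the others. Its log2 fold change was 3.91 ± 0.739 against 2W-PSCs (adjusted p = 0.00746 by edgeR) and 3.86 ± 0.704 against mono-PSCs (adjusted p = 0.000599 by edgeR). *Cxcl9*, a chemokine induced by interferon-gamma, was at 0 in all mono-PSC libraries and at 5.53 CPM on average in 3W-PSCs, at least 11-fold higher against a floor of 3 counts per library.

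The class I genes, added after their values could be seen, were at a far higher level than the class II genes. *H2-K1*, a class I heavy chain, averaged 40.8 ± 8.78 CPM in mono-PSCs, 37.9 ± 13.3 in 2W-PSCs and 410 ± 41.2 in 3W-PSCs (SD, n = 4). *H2-D1*, the other classical heavy chain, averaged 59.1 ± 7.40, 65.4 ± 25.6 and 473 ± 49.96 CPM. *B2m*, the light chain shared by class I molecules, averaged 1158 ± 169, 1194 ± 368 and 3906 ± 678 CPM.

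All 3 class I genes rose in 3W-PSCs and none differed past the threshold between 2W-PSCs and mono-PSCs. Against 2W-PSCs, the log2 fold change was 3.43 ± 0.263 for *H2-K1* (adjusted p = 4e-05 by edgeR), 2.85 ± 0.298 for *H2-D1* (adjusted p = 0.000252 by edgeR) and 1.71 ± 0.235 for *B2m* (adjusted p = 0.00123 by edgeR), and each was called in all 16 alternatives. The heavy chain genes are close paralogues, so that reads may be divided unevenly between them. Because the 3′ kit yields about 1 fragment per transcript, levels of different genes can be set side by side without a length correction. In 3W-PSCs the class I heavy chains stood at 410 and 473 CPM, and the class II chains *H2-Aa*, *H2-Ab1* and *H2-Eb1* at 0.116, 0 and 0.251 CPM.

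**Figure D3:**
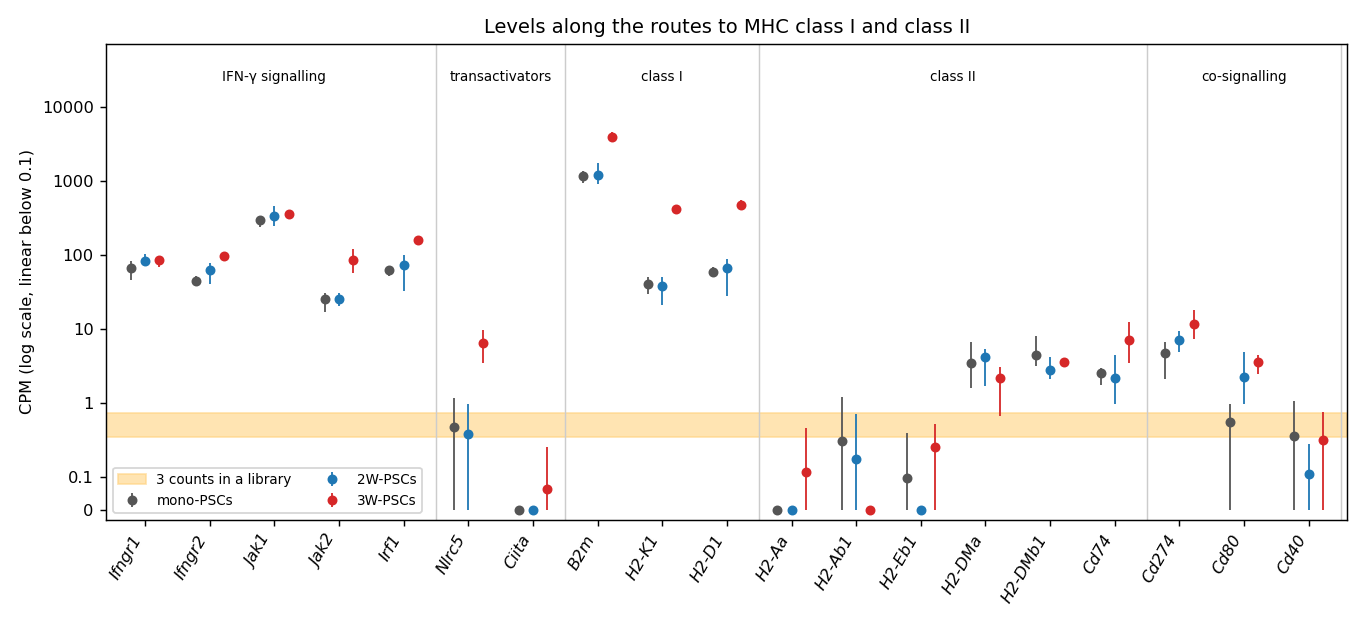
Levels along the routes to MHC class I and class II. Points are mean CPM of the 4 libraries of a culture and bars run from the lowest to the highest library, on a log axis that is linear below 0.1; the shaded band marks 3 counts in a library (0.347 to 0.736 CPM). *Nlrc5* and the class I genes are higher in 3W-PSCs than in the other cultures, while *Ciita*, *H2-Aa*, *H2-Ab1* and *H2-Eb1* have their means below the band in all 3 cultures.

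Of 11 genes of the route downstream of CD40, 10 passed the filter in the comparisons with 3W-PSCs. Against 2W-PSCs 4 were higher, 0 lower and 6 not called (median log2 fold change 0.75, with 5.73% of all genes higher). Against mono-PSCs 5 were higher and 0 lower (median 1.21, with 13.4% of all genes higher). In 2W-PSCs against mono-PSCs edgeR and the DESeq2 Wald test called 0. *Traf1* and *Birc3* passed the filter only in the comparisons with 3W-PSCs, where they are high. The filter thus largely set their direction and their part in the counts and medians, while *Nfkb2* and *Relb* passed it in every comparison. *Nfkb2* and *Relb* encode the subunits of the non-canonical NFκB dimer, which other receptors of the TNF family also engage. *Relb* averaged 8.38 CPM in mono-PSCs, 11.5 in 2W-PSCs and 37.4 in 3W-PSCs, and rose by 1.70 ± 0.262 against 2W-PSCs (adjusted p = 0.00254 by edgeR). *Nfkb2* averaged 32.1, 34.6 and 81.6 CPM and rose by 1.24 ± 0.177 (adjusted p = 0.00153 by edgeR). *Traf1*, a signalling adaptor that NFκB induces, was at 2 counts or fewer in every 2W-PSC library, and the 3W-PSCs exceeded these by at least 4.87-fold, against the floor of 3 counts per library. *Birc3* (cIAP2), a ubiquitin ligase of the same complexes, was also called (2.82 ± 0.627, adjusted p = 0.0165 by edgeR), in 11 of 15 alternatives, the call being lost without replicate 4 of the 2W-PSCs, without replicate 1 or 2 of the 3W-PSCs, and with a replicate block (adjusted p = 0.0571). *Cd40lg*, the ligand, had no count in any library.

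Genes described beside class II in apCAFs or in mesothelial cells were mixed. Of the 9, 6 passed the filter in 3W-PSCs against mono-PSCs, where 4 were higher and 0 lower beside 13.4% of all genes higher. The 4 were *Saa3*, *Slpi*, *Irf5* and *Krt19*, and the median log2 fold change was 4.0. *Slpi* had at most 2 counts and *Krt19* at most 7 in a mono-PSC library, and both passed this filter through the 3W-PSC libraries. The filter thus largely set their direction and their part in the count and the median. In 3W-PSCs against 2W-PSCs 5 passed the filter, where 1 was higher and 0 lower beside 5.73% of all genes higher. The count higher was 2 without replicate 1 or 4 of the 2W-PSCs or replicate 1 of the 3W-PSCs, and 3 without replicate 2 or 3 of the 2W-PSCs, without the filter, and by the DESeq2 Wald test, which also called *Slpi* and *Irf5*. *Saa3*, an acute phase protein, averaged 2.85 ± 1.48 CPM in mono-PSCs, 2.52 ± 1.07 in 2W-PSCs and 236 ± 117 in 3W-PSCs, and rose by 6.58 ± 0.478 (adjusted p = 3.26e-05 by edgeR). *Slpi*, a secreted protease inhibitor, was at 0 in the 2W-PSCs and at 1.82 ± 0.399 CPM in 3W-PSCs, at least 3.61-fold above mono-PSCs against the floor of 3 counts per library. *Irf5*, a transcription factor that is high in myeloid cells, had 8, 3, 15 and 6 counts in mono-PSCs, 32, 3, 84 and 42 in 2W-PSCs and 132, 150, 156 and 158 in 3W-PSCs.

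*Irf5* was called against mono-PSCs (log2 fold change 3.81 ± 0.369, adjusted p = 7.24e-07 by edgeR) but not against 2W-PSCs (1.54 ± 0.512, adjusted p = 0.0802 by edgeR), where leaving out replicate 2 or 3 of the 2W-PSCs, or the filter, made it a call, as did the DESeq2 Wald test. Of the mesothelial genes, *Lrrn4* and *Wt1* did not pass the filter, and *Msln* and *Upk3b* gave no call in the 3 comparisons, though *Msln* was called in 3W-PSCs against 2W-PSCs without replicate 2 of the 2W-PSCs, and *Upk3b* against mono-PSCs without replicate 1 of either culture, without the filter (adjusted p = 0.0161 by edgeR) and by the DESeq2 Wald test (adjusted p = 0.0399). *Msln* had its highest mean in 2W-PSCs (19.9 ± 4.05 CPM) and *Upk3b* its lowest in 3W-PSCs (1.14 ± 0.821 CPM). *Krt19*, a keratin, was called higher in 2W-PSCs (17.4 ± 5.08 CPM) and 3W-PSCs (13.7 ± 3.12 CPM) than in mono-PSCs (0.461 ± 0.513 CPM), as were the epithelial markers that passed the filter, 4 of 4 in 2W-PSCs and 5 of 5 in 3W-PSCs. Of all genes tested against mono-PSCs, 0.839% were higher in 2W-PSCs and 13.4% in 3W-PSCs. *Krt19* and these epithelial markers were low in mono-PSCs and passed the filter through the co-cultures, so their direction was largely set by it.

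**Figure D4:**
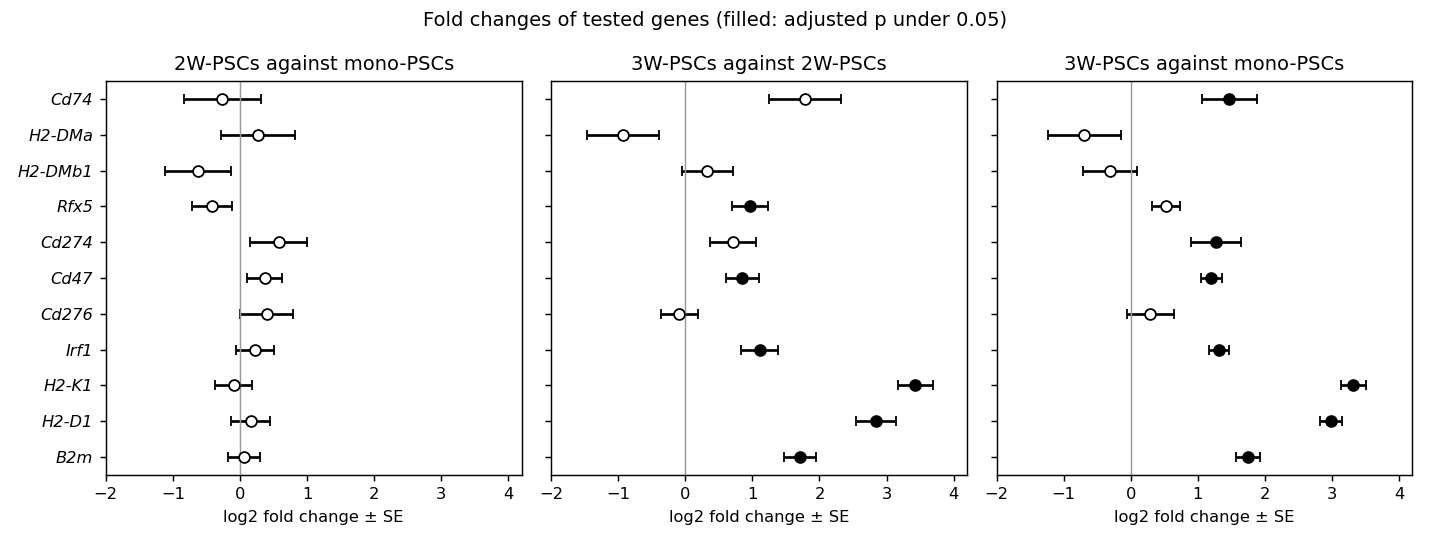
Fold changes of class II, co-signalling, interferon route and class I genes. Points are log2 fold changes of edgeR with their SE in the 3 comparisons, each over 8 libraries, filled where the adjusted p is under 0.05. *Cd74* and *Cd274* are filled in 3W-PSCs against mono-PSCs (1.47 and 1.27), *H2-DMa* and *H2-DMb1* in none, and *H2-K1*, *H2-D1* and *B2m* in both comparisons with 3W-PSCs.

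Within a culture, the order of the 8 genes was the same at the top in mono-PSCs and 2W-PSCs, with *Cd274* first (4.69 ± 2.04 and 7.03 ± 2.03 CPM), *H2-DMa* next (3.49 ± 2.29 and 4.17 ± 1.75) and *Cd74* after it (2.55 ± 0.552 and 2.18 ± 1.55). In 3W-PSCs *Cd74* (7.19 ± 3.66 CPM) stood between *Cd274* (11.5 ± 4.78) and *H2-DMa* (2.15 ± 1.04). Neighbours among these 3 genes overlapped in their libraries, except *Cd74* and *H2-DMa* in 3W-PSCs. *Cd40* came next in mono-PSCs and 3W-PSCs, at 0.359 ± 0.479 and 0.315 ± 0.321 CPM. Among all genes with a count in 3W-PSCs, *Cd274* was above 52.6%, *Cd74* above 46.5% and *H2-DMa* above 35.4%.

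The genes whose log2 CPM followed each of the 3 measurable genes most closely over the 12 libraries were taken from 11776 genes. For *Cd74* they were *Baz1a* (Pearson r = 0.918), *Mcmbp* (0.911) and *Tnip1* (0.907). For *H2-DMa* they were *Pole4* (0.886), *Uqcrc1* (0.883) and *Blzf1* (0.860), and for *Cd274* *Nectin2* (0.871), *Diexf* (0.856) and *Gprc5b* (0.854). *Nectin2* encodes a ligand of the T cell receptors TIGIT and DNAM-1. The libraries share the 3 cultures and their depth, and the coefficients describe likeness only.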

How the data were processed

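The authors made QuantSeq 3′ FWD libraries and, per the labels and methods, checked reads with FastQC, used STAR to align these with GRCm38, and obtained gene counts from featureCounts. The deposited values are raw counts, whole numbers for 39179 genes in 12 libraries. Neither molecular identifiers nor the strand setting are given in the sources used here, so PCR copies are counted and intervals cover counting error only.

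The counts were scaled by TMM in edgeR 4.0.16 (R 4.3.3), filtered by filterByExpr and compared in pairs of cultures (8 libraries per fit, no block) by the quasi-likelihood test, with Benjamini-Hochberg adjustment over all genes tested and a threshold of 0.05. Fold changes carry a prior count of 0.125, and log2 CPM for exact permutation tests and likeness a prior count of 2. Levels are CPM scaled over all 12 libraries. DESeq2 1.42.0, other filters and scaling, all libraries in one fit, the replicate block and each library left out were alternatives. The test was first tried on simulated counts.

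The 8 genes, the gene lists and the marker lists were chosen with earlier results of these data known. Named were the 8 genes, genes of these lists, and the 3 genes most like each gene with at least 10 counts in 4 libraries; the class I genes were added later, and some genes of these lists are not reported here. The positions are those of GENCODE M21 on GRCm38, and promoter sequences came from RefSeq.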

Additional observations from a re-analysis of the deposited data

Results flagged for a closer look

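Within each culture of 4 libraries, a highest or lowest library was singled out when its gap to the next, divided by the whole range, exceeded Dixon's critical value at 95%. This happened in 8 of 66 groups checked, where chance gives about 1 in 20. For the class II chains and *Ciita* it means only that a single library of a culture had any count, namely *Ciita* in 3W-PSCs (0.255 CPM), *H2-Aa* in 3W-PSCs (0.463 CPM), *H2-Ab1* in mono-PSCs (1.21 CPM) and in 2W-PSCs (0.704 CPM), and *H2-Eb1* in mono-PSCs (0.392 CPM). *H2-DMb1* was at 8.03 CPM in replicate 2 of the mono-PSCs, above the other 3 libraries. The summed fibroblast markers reached 8710 CPM in replicate 2 of the 2W-PSCs, the library that stands apart from its replicates, and the summed macrophage markers reached 75.5 CPM in replicate 4 of the 3W-PSCs, the library with the highest *Cd74* and *Cd274* levels. No cause was tested for any of these values.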

How the results depend on the processing

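None of the log2 fold changes of *Cd74*, *H2-DMa* and *Cd274* changed direction under the alternatives run. In 3W-PSCs against 2W-PSCs the number of the 3 genes called went from 0 to 1 (*Cd74*) without a filter, with all 12 libraries in one fit, by the DESeq2 Wald test, and without replicate 2 of the 2W-PSCs and replicate 4 of the 3W-PSCs together. With single libraries left out it was 0 to 1 there, 0 to 2 in 3W-PSCs against mono-PSCs and 0 in 2W-PSCs against mono-PSCs. Over all genes, calls with single libraries left out numbered 497 to 2107 in 3W-PSCs against 2W-PSCs (1230 with all), 61 to 233 in 2W-PSCs against mono-PSCs (111 with all) and 2228 to 4266 in 3W-PSCs against mono-PSCs (3054 with all). In 2W-PSCs against mono-PSCs there were 177 calls without a filter, 57 with at least 10 counts in every library, 262 with all libraries in one fit and 275 by DESeq2. The cause of these differences was not tested. The replicate numbers were not taken to pair the libraries (correlations of deviations -0.048 to 0.338, not above 0.1 in every pair of any comparison). In 2W-PSCs against mono-PSCs they were 0.338, 0.259, 0.211 and 0.099, the last just under that rule, so pairing there was not settled. The replicate block gave 752 calls in 3W-PSCs against 2W-PSCs, 135 in 2W-PSCs against mono-PSCs and 3092 in 3W-PSCs against mono-PSCs, and changed no call of the 8 genes. Among the listed genes it ended 4 calls in 3W-PSCs against 2W-PSCs, those of *Rfx5* (adjusted p = 0.0594), *Cd47* (0.0528), *Cxcl9* (0.0517) and *Birc3* (0.0571). At 6 to 94 counts per library for *Cd74*, and 0 to 10 for the class II chains, depth limits what could be seen, and 5 of the 8 genes did not pass the filter of the main test.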
